A study of Mus musculus with 4 samples.

Results

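Interferon-stimulated genes and genes of major histocompatibility complex (MHC) class I antigen presentation were followed in mouse embryonic fibroblasts (MEF cells), connective tissue cells grown from embryos. The members were 42 genes chosen by symbol, 37 interferon-stimulated genes and 5 class I presentation genes, and each matched 1 of the 47937 gene rows of the count table. Ribosomal RNA-depleted total RNA was sequenced from wild-type, untreated MEF cells (2 libraries) and from MEF cells treated with 50 µM genistein, a plant isoflavone, for 24 h (2 libraries). The study asked how genistein acts on the transcription of major satellite repeats. For the treated samples the genotype entry of the labels names the treatment and no genotype, and the mouse strain of the cells and a vehicle for the untreated cells were not given in the labels.

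Interferons are secreted proteins that bind receptors on the cell surface. The receptors act through Janus kinases, which phosphorylate STAT proteins. Stat2 and Irf9 are subunits of the complex ISGF3, which binds a DNA element called the interferon-stimulated response element (ISRE) before genes that restrict viruses. Type II interferon induces the factor Irf1, which drives guanylate-binding proteins and the class I pathway. In that pathway, peptides are carried into the endoplasmic reticulum by the transporter Tap1 and Tap2, loaded with the help of tapasin (Tapbp), and shown at the cell surface on a heavy chain such as H2-K1 or H2-D1 held by B2m. Double-stranded RNA is a known trigger of interferon production.

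The total count over genes and repeats was between 28591958 and 31464284 in the 4 libraries. Replicate libraries were not copies of each other, with a chi-square of their counts per degree of freedom at 5.48 (untreated) and 12.1 (genistein). Of 10 fibroblast markers, 9 were tested, of which 2 rose and 7 fell, beside 33.5% and 38.2% of all tested genes. The summed normalised count of the fibroblast markers was 432965 and 444697 without genistein and 421861 and 412646 with it. The marker Thy1 had no count. Of 10 leukocyte markers, 5 had no count in any library (Adgre1, Aif1, Cd3e, Ncr1 and Itgax), and the common leukocyte antigen Ptprc had 1 raw count in untreated 1 and 1 in genistein 2. Their summed normalised count was 210 and 193 without genistein and 550.4 and 574 with it, almost all of it from Cd68 and Csf1r, which had log2 fold changes of 1.496 and 1.46. The endothelial markers summed to between 26.0 and 33.9 normalised counts without genistein and to between 99.2 and 99.4 with it, and the epithelial markers summed to between 451.5 and 461.6 and to between 131 and 137. The part of these markers in the changes given here was not tested. In bulk RNA, more cells of a type and more RNA per cell cannot be told apart.

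Of the 42 members, 23 rose with genistein and 3 fell, while 6 did not pass the test and 10 had too few reads to be tested. Each gene was tested by the quasi-likelihood method of edgeR, and the p-values were adjusted by Benjamini-Hochberg over all genes and repeats with enough counts. A call is an adjusted p-value under 0.05. Among all 16240 tested genes, 33.5% rose and 38.2% fell by the same rule, 71.7% in all. For 7 members (Irf7, Ifit1, Ifit3, Oasl2, Isg15, Gbp3 and Igtp), an untreated library was below the count of the filter, so that they entered the test through their genistein libraries and had to be higher there. Of the 25 members that reached that count in both untreated libraries, 16 rose and 3 fell, beside 31.9% and 40.8% of the 15218 genes that did. The members that fell were Parp12, Samhd1 and Trim25, and the fall of Samhd1 and Trim25 did not pass when libraries were scaled by their totals alone or from genes alone.

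The study's thresholds also ask for a change of more than 1 on the log2 scale and for a mean normalised count above 100. Tap1, Xaf1, Gbp2, Ifi27 and Trim21 rose past all of them, 5 of the 32 tested members, and none fell past them. Among all tested genes these shares were 3.92% and 4.16%, and 8.08% in all. A normalised count is a count divided by the effective size of its library and multiplied by the mean effective size. By these counts, both genistein libraries lay above both untreated libraries for 25 of the 32 tested members and below them for 5. The 25 include the 7 members that entered the test through their genistein libraries. For all tested genes these shares were 40.7% and 44.6%. The groups overlapped for Irf9 and Irgm1.

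The median log2 fold change was 0.50 over the 20 interferon-stimulated members that reached the count of the filter in both untreated libraries, against -0.07 for all genes that did. Over all 27 tested ones, 7 of which had to be higher, it was 0.85, against -0.03 for all tested genes. The 37 interferon-stimulated members summed to 10609 and 10496 normalised counts without genistein and to 12738 and 12213 with it, a ratio of 1.18. This sum was held mostly by abundant members, 4 of which made up 63.3% of it in untreated cells.

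**Figure D1:**
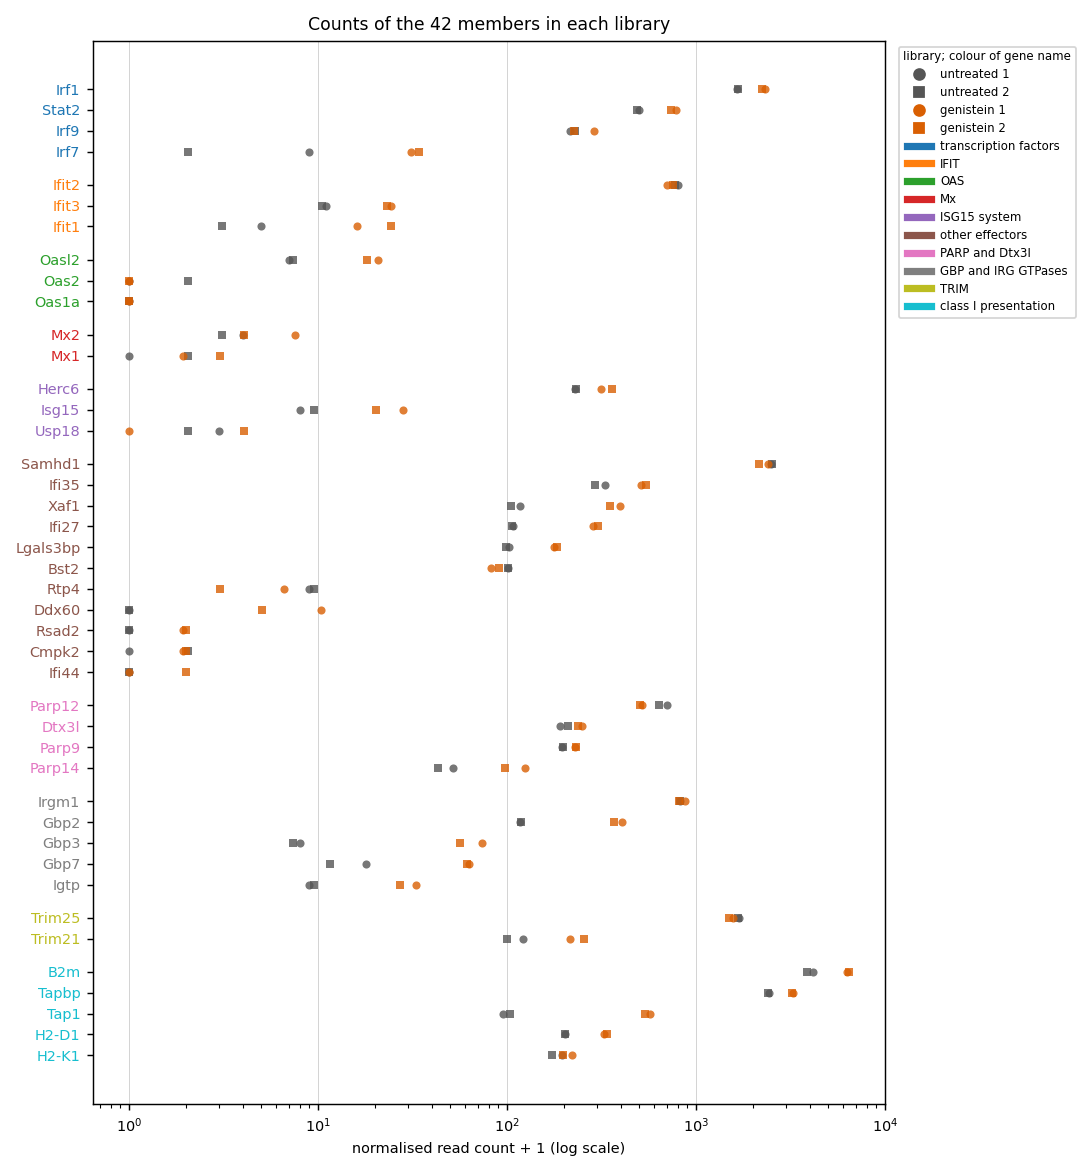
Normalised read counts plus 1 (log axis) of the 42 members, 1 row per gene and 1 point per library, with gene names coloured by role. Some members with counts of a few reads in untreated cells, such as Gbp3 and Irf7, stand apart between groups, and these 2 had to be higher to be tested. Among abundant members, Samhd1, Trim25, Irgm1 and Ifit2 lie close together, while B2m, Tapbp and Irf1 are higher in both genistein libraries.

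Promoter letters were compared, since many of these genes are known to share the ISRE. RefSeq promoter windows on GRCm38.p6, from 250 bases before to 50 after a start site, were found for 34 members and not for Oas2, Usp18, Parp14, Ifi27, Rtp4, Mx2, Parp9 and Mx1. The core of the ISRE was searched on both strands as 2 blocks of GAAA with any 2 bases between them, and 15 of the 34 members (44.1%) held it, against 3.99% of the 27025 genes with a window. Of the 39 windows of members, 38.5% held it, against 3.44% of all windows. The gamma-activated sequence, searched as TTCNNNGAA on both strands, was held by 8 of the 34 members (23.5%) and by 9.55% of all genes. Among the class I members, B2m held the ISRE core and none held the gamma-activated sequence. The 30-base stretches below are shown because they carry these matches in members that rose and in Bst2 and Irgm1, which did not pass the test. Capitals mark every base of such a match, which reads as TTTC blocks where it is on the other strand, and each line is 5′ to 3′ on the strand of the gene, with its place in the genome after the sequence.
Gbp2: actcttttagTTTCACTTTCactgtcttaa (chr3:142620594-142620623, + strand)
Gbp3: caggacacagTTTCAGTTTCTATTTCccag (chr3:142559989-142560018, + strand)
Gbp7: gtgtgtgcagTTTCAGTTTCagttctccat (chr3:142530273-142530302, + strand)
Igtp: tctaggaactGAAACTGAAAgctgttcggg (chr11:58199512-58199541, + strand)
Ifit1: gTTTCACTTTCcagtctcagTTTCAGTTTC (chr19:34640784-34640813, + strand)
Isg15: tgccgtagGAAAAGGAAACCGAAACAGAAA (chr4:156200875-156200904, - strand)
Stat2: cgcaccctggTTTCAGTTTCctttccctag (chr10:128270266-128270295, + strand)
Trim21: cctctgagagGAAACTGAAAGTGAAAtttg (chr7:102565450-102565479, - strand)
B2m: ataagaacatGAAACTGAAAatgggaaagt (chr2:122147538-122147567, + strand)
Bst2: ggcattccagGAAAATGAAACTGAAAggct (chr8:71537583-71537612, - strand)
Irgm1: cctgtttcaaGAAATAGAAACCGAAActga (chr11:48871431-48871460, - strand)

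Isg15 held 3 overlapping matches, and the match of Gbp2 began 59 bases before the start site of its RefSeq window. The gene Gbp2 as annotated starts at 142620602, so this match lies within it. The matches of Trim21 lay after the start site, 13 and 19 bases from it. Of the 12 tested members with an ISRE core, 10 rose, of which 5 had to be higher to be tested (Ifit1, Ifit3, Isg15, Gbp3 and Igtp), and none fell, with log2 fold changes from -0.23 to 3.25. Of the 17 tested members with a window that did not hold it, 11 rose, of which 2 had to be higher (Irf7 and Oasl2), and 3 fell, with log2 fold changes from -0.38 to 2.74. Of all tested genes, 33.5% rose and 38.2% fell. Both sets of members overlapped widely, and the difference between them was not tested. The members without a match included Irf7, Tap1 and Xaf1, so large rises were found in both sets. A match is a description of letters in a window, and no match does not show that a factor does not bind.

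**Figure D2:**
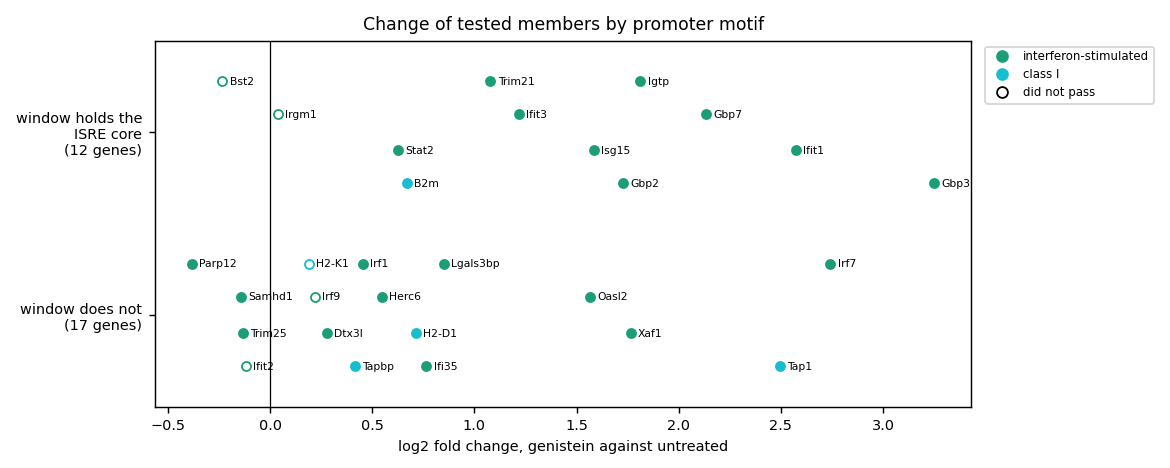
Log2 fold change (horizontal axis) of the 29 tested members with a RefSeq promoter window, in 2 rows by whether the window holds the ISRE core; points are genes, and open points did not pass the test. The 12 genes with the motif range from -0.23 to 3.25 and the 17 without it from -0.38 to 2.74.

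The transcription factors of the pathway came first. Irf7, the factor that amplifies type I interferon production, had normalised counts of 7.99 and 1.06 without genistein and 30.01 and 33.4 with it. The genistein libraries were both higher than either untreated library, which rested on 8 and 1 raw counts. The log2 fold change was 2.74 (standard error 0.46, adjusted p = 5.3e-05, edgeR). It was 4.75 without untreated 1 and 1.97 without untreated 2, so its size is imprecise. Stat2, a subunit of ISGF3, had 500.5 and 486 normalised counts without genistein and 781 and 739 with it. Both genistein libraries were higher, with a log2 fold change of 0.62 and a standard error of 0.06 (adjusted p = 1.5e-07, edgeR). Irf1, a factor of the response to type II interferon, had 1649 and 1664 normalised counts without genistein and 2312 and 2226 with it, a log2 fold change of 0.45 (standard error 0.04, adjusted p = 3.8e-08, edgeR). Irf9, the DNA-binding subunit of ISGF3, had 214 and 229 against 288 and 225 normalised counts. Its groups overlapped, since genistein 2 lay between the untreated libraries, and its log2 fold change of 0.22 did not pass (adjusted p = 0.10, edgeR), though it did with library totals (0.29) and without genistein 2 (0.38). Of these 4 genes, 3 rose, beside 33.5% of all tested genes, and Irf7 had to be higher to be tested. Irf9 and the neighbouring gene Rnf31 share 123 exon bases on the same strand, so reads there cannot be told apart.

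Members that bind viral RNA or block its translation were mostly near the limit of detection. Ifit1, which binds RNA that lacks the cap methylation of the host, had normalised counts of 3.996 and 2.12 without genistein and 15.003 and 23.3 with it. Both genistein libraries were higher, with a log2 fold change of 2.58 and a standard error of 0.51 (adjusted p = 0.00029, edgeR). Ifit3, its partner, rose from 9.99 and 9.53 to 23.4 and 22.3 normalised counts (log2 fold change 1.22, standard error 0.34, adjusted p = 0.0047, edgeR), a call that DESeq2 did not make. Both Ifit1 and Ifit3 had to be higher to be tested. Ifit2 was by far the most abundant of the 3, with 6.71 reads scaled to exon length and library size (RPKM) in untreated cells against 0.0385 for Ifit1 and 0.187 for Ifit3. Its normalised counts were 801 and 776 without genistein and 701 and 752 with it. They were lower with genistein by 0.12 on the log2 scale, which did not pass (adjusted p = 0.086, edgeR) except without genistein 2. Ifit1, Ifit2 and Ifit3 lie in 1 cluster on chromosome 19, from 34550694 to 34650009. Ifit1 and Ifit3 have near-identical copies there, and genes of the OAS, GBP and IRG families resemble their neighbours, so these counts may hold reads of related genes.

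Oligoadenylate synthetases sense double-stranded RNA and activate the nuclease RNase L. Oas1a had no count in any library, which allows at most 3 counts per library, or 0.0953 to 0.105 CPM (counts scaled to library size). Oas2 had 1 raw count, in untreated 2. Oasl2, an OAS-like gene of the family, rose from 5.99 and 6.35 to 19.7 and 17.2 normalised counts (log2 fold change 1.56, standard error 0.41, adjusted p = 0.0026, edgeR), a call that DESeq2 did not make. Oasl2 had to be higher to be tested. The GTPases Mx1 and Mx2, which trap viral nucleocapsids, were too low to test. Mx1 had 0 and 1 raw counts without genistein and 1 and 2 with it, and Mx2, annotated as a polymorphic pseudogene, had 3 and 2 against 7 and 3.

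Isg15 is a protein like ubiquitin that is attached to other proteins, in mice by the ligase Herc6, and removed by Usp18. Isg15 had normalised counts of 6.99 and 8.47 without genistein and 27.2 and 19.2 with it, a log2 fold change of 1.58 (standard error 0.38, adjusted p = 0.0014, edgeR). Its genistein libraries were both higher but stayed at few reads, with an RPKM of 0.342 in untreated and 1.03 in treated cells. Isg15 had to be higher to be tested. Herc6 had 229 and 230 normalised counts without genistein and 314 and 357 with it, and rose by a log2 fold change of 0.55 (standard error 0.10, adjusted p = 8e-05, edgeR). Usp18 had 2 and 1 raw counts without genistein and 0 and 3 with it and was not tested.

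Among 11 other effectors, 6 were tested, of which 4 rose and 1 fell, beside 33.5% and 38.2% of all tested genes. Xaf1, a protein that antagonises the inhibitor of apoptosis XIAP (chromosome 11, 72301629 to 72313733), had normalised counts of 116 and 104 without genistein and 396 and 351 with it. Both genistein libraries were higher, and it rose 3.40-fold (log2 fold change 1.76, standard error 0.11, adjusted p = 4.9e-10, edgeR). Ifi27, a small hydrophobic membrane protein (chromosome 12, 103434211 to 103440239), had 107 and 105 normalised counts without genistein and 283 and 304 with it. It rose 2.77-fold (log2 fold change 1.47, standard error 0.11, adjusted p = 4.6e-09, edgeR). Lgals3bp, a secreted glycoprotein that binds galectins, and Ifi35 rose less, with log2 fold changes of 0.85 and 0.76 and standard errors of 0.13 and 0.08 (adjusted p = 1.4e-05 and 2.5e-07, edgeR). Samhd1 degrades deoxynucleotides and was the most abundant of the 11 per length, at 9.21 RPKM in untreated cells. Its normalised counts were 2503 and 2537 without genistein and 2401 and 2166 with it. The log2 fold change was -0.14 (standard error 0.05, adjusted p = 0.011, edgeR), a call lost with library totals, with scaling from genes alone and without genistein 2. Bst2, which tethers budding virus to the cell surface, had 101 and 101 normalised counts without genistein and 81.6 and 90.1 with it, a log2 fold change of -0.23 that did not pass (adjusted p = 0.16, edgeR).

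The other 5 effectors were too low to test. Rsad2 (viperin) had 0 and 0 raw counts without genistein and 1 and 1 with it. Its neighbour on chromosome 12, Cmpk2, had 0 and 1 against 1 and 1, and Ifi44 had 1 raw count, in genistein 2. Ddx60, a helicase, had no count without genistein and 10 and 4 with it, and passed the test where no filter was used (adjusted p = 0.00072, edgeR). Rtp4, a receptor transporter protein, had 8 and 8 raw counts without genistein and 6 and 2 with it. Among the untested members, Rsad2, Mx1, Oas1a, Oas2, Usp18, Cmpk2 and Ifi44 held at most 3 raw counts in any library. No difference in them was detectable at this depth. Of the 27 tested interferon-stimulated members, 19 were called higher, beside 33.5% of all tested genes. Among these 19, Irf7, Ifit1, Ifit3, Oasl2, Isg15, Gbp3 and Igtp had to be higher to be tested.

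Parp9, Parp14 and Dtx3l lie side by side on chromosome 16, and Parp9 and Dtx3l, which form a complex of an ADP-ribosyltransferase and a ubiquitin ligase, share 458 exon bases on opposite strands. Parp14, an ADP-ribosyltransferase, had normalised counts of 50.9 and 42.3 without genistein and 124 and 97.2 with it. It rose by a log2 fold change of 1.24 (standard error 0.18, adjusted p = 1.4e-05, edgeR). Dtx3l had 191 and 210 against 248 and 237 normalised counts (log2 fold change 0.28, adjusted p = 0.021, edgeR), a call lost with DESeq2, without untreated 1 and without genistein 1. Parp9 had a log2 fold change of 0.22 that did not pass (adjusted p = 0.057, edgeR) but passed with library totals (adjusted p = 0.015) and with scaling from genes alone (adjusted p = 0.026). Parp12, an ADP-ribosyltransferase of stress granules, went the other way. Its normalised counts were 698 and 641 without genistein and 520 and 507 with it, both lower, with a log2 fold change of -0.38 and a standard error of 0.07 (adjusted p = 6.9e-05, edgeR).

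Interferon-inducible GTPases attack the vacuoles of intracellular microbes. Of the 5 listed here, 4 rose, beside 33.5% of all tested genes, and Gbp3 and Igtp had to be higher to be tested. Gbp7, Gbp3 and Gbp2 follow each other on chromosome 3, from 142530342 to 142638008. Gbp2 had normalised counts of 117 and 118 without genistein and 408 and 367 with it. Both genistein libraries were higher, and it rose 3.31-fold (log2 fold change 1.73, standard error 0.10, adjusted p = 3.2e-10, edgeR). Gbp3 had 6.99 and 6.35 normalised counts without genistein and 73.1 and 55.7 with it. This was the largest fitted change among the tested members, with a log2 fold change of 3.25 and a standard error of 0.31 (adjusted p = 9.5e-08, edgeR), but it rested on 7 and 6 raw counts in untreated cells. Gbp7 rose from 16.98 and 10.6 to 61.9 and 60.7 normalised counts (log2 fold change 2.13, standard error 0.26, adjusted p = 1.8e-06, edgeR). Another gene of the family, Gbp5, had no count in any library. Igtp, of the IRG family, had 7.99 and 8.47 normalised counts without genistein and 31.9 and 26.3 with it, a log2 fold change of 1.81 (standard error 0.34, adjusted p = 0.00018, edgeR), and shares 162 exon bases on the same strand with Irgm2. Irgm1, a regulator of the other IRG proteins, was the most abundant of the 5 at 4.74 RPKM. Its normalised counts were 822 and 825 without genistein and 874 and 814 with it. The groups overlapped, and the log2 fold change of 0.04 did not pass (adjusted p = 0.59, edgeR).

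The ubiquitin ligases Trim21, an antibody receptor of the cytosol, and Trim25, an activator of the RNA sensor RIG-I, moved in opposite directions. Trim21 had normalised counts of 121 and 99.5 without genistein and 214 and 254 with it, a log2 fold change of 1.08 (standard error 0.13, adjusted p = 1.7e-06, edgeR). It fell short of the fold threshold at 0.95 without untreated 2 and at 0.95 without genistein 2. Trim25 had 1683 and 1678 normalised counts without genistein and 1568 and 1497 with it. Its log2 fold change was -0.13 (standard error 0.04, adjusted p = 0.013, edgeR), a call lost with library totals, with scaling from genes alone, with DESeq2 and without genistein 2.

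**Figure D3:**
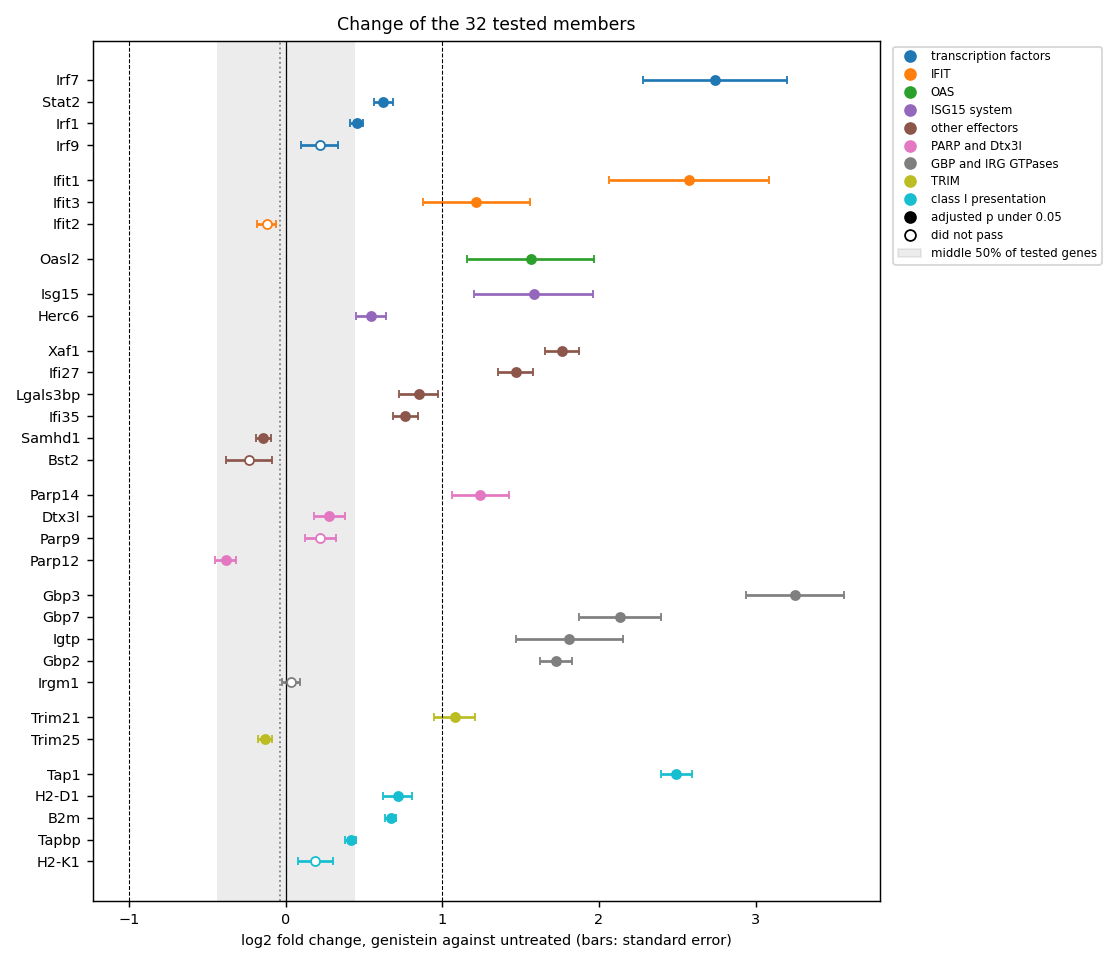
Log2 fold change of the 32 tested members, genistein against untreated, with bars for the standard error, grouped and coloured by role; open points did not pass the test, dashed lines mark a log2 fold change of 1 in either direction, and the grey band holds the middle 50% of tested genes. Gbp3 (3.25), Irf7 (2.74), Ifit1 (2.58) and Tap1 (2.495) lie farthest to the right, and Tap1 has a far shorter bar (0.10) than Irf7 (0.46) or Ifit1 (0.51). Of these, Gbp3, Irf7 and Ifit1 had to be higher to be tested.

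The class I presentation genes were then set beside the interferon-stimulated genes. All 5 were tested and reached the count of the filter in both untreated libraries. Of them, 4 rose and none fell, beside 12 and 3 of the 20 interferon-stimulated members with the same level of detection. Of all genes at that level, 31.9% rose and 40.8% fell. The median log2 fold change was 0.67 for the class I members, 0.50 for these 20 members and -0.07 for all such genes. The difference between the class I and the interferon-stimulated members was not tested. The class I members summed to 7087 and 6758 normalised counts without genistein and 10684 and 10762 with it, a ratio of 1.55.

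Tap1 carried the largest change of the 5. This subunit of the peptide transporter (chromosome 17, 34187553 to 34197225) had normalised counts of 93.9 and 103 without genistein and 568 and 539 with it. Both genistein libraries lay far above both untreated libraries, and Tap1 rose 5.64-fold (log2 fold change 2.495, standard error 0.10, adjusted p = 1.6e-12, edgeR). Across the fits that each left out 1 library the log2 fold change lay from 2.43 to 2.56. Tap2, the other subunit of the transporter, had 67.9 and 74.1 normalised counts without genistein and 84.4 and 91.1 with it, a log2 fold change of 0.30 (standard error 0.16) that did not pass (adjusted p = 0.095, edgeR). The difference between Tap1 and Tap2 was not tested. Psmb9, an immunoproteasome subunit that lies next to Tap1 and shares 212 exon bases with it on the opposite strand, had 7 and 6 raw counts without genistein and 15 and 9 with it and was not tested. Whether the counting used strand was not stated, so reads in the shared bases cannot be assigned with certainty.

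B2m, the light chain common to all class I molecules, was the most abundant member per length, at 156 RPKM in untreated and 248 RPKM in treated cells. Its normalised counts were 4153 and 3865 without genistein and 6311 and 6461 with it. Both genistein libraries were higher, with a log2 fold change of 0.67 and a standard error of 0.04 (adjusted p = 7.6e-11, edgeR). Tapbp had 2443 and 2415 normalised counts without genistein and 3257 and 3227 with it (log2 fold change 0.42, standard error 0.04, adjusted p = 2.1e-08, edgeR). Part of the exons of Tapbp is shared with Zbtb22 (149 bases, same strand) and with a predicted gene on the opposite strand (904 bases).

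The heavy chains were far lower than B2m. H2-D1 had normalised counts of 203 and 202 without genistein and 327 and 338 with it. Both genistein libraries were higher, with a log2 fold change of 0.72 and a standard error of 0.09 (adjusted p = 2.8e-06, edgeR). H2-K1 had 194 and 173 normalised counts without genistein and 221 and 196 with it. The genistein libraries were narrowly above the untreated ones, and the log2 fold change of 0.19 (standard error 0.11) did not pass (adjusted p = 0.14, edgeR), though it did with library totals alone (0.26, adjusted p = 0.042). In untreated cells the levels per length were 2.08 RPKM for H2-K1 and 2.62 RPKM for H2-D1. Class I heavy chains differ between mouse strains and resemble one another, and reads of a strain unlike the reference genome may have been lost or counted under a related gene. The size of that effect was not tested.

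The rest of the pathway was described from lists written from general knowledge, with earlier results of these data known. Of 21 interferon ligand genes, 18 had no count in any library, Ifnb1 and Ifng among them. The other 3 (Ifna13, Ifnab and Ifne) held 1, 3 and 1 raw counts over all libraries, so no interferon RNA was detectable above a few reads. Of 19 genes for receptors and signalling, 18 were tested, of which 11 rose (61.1%) and 3 fell, with a median log2 fold change of 0.23. All 18 reached the count of the filter in both untreated libraries. Of all genes that did, 31.9% rose and 40.8% fell, with a median of -0.07. The type I receptor subunits Ifnar1 and Ifnar2 rose by log2 fold changes of 0.48 and 0.25 (adjusted p = 2e-08 and 0.00094, edgeR). The type II receptor subunits split, with -0.30 for Ifngr1 and 0.35 for Ifngr2 (adjusted p = 7e-05 and 2.2e-05, edgeR). The kinases Tyk2, Jak1 and Jak2 had log2 fold changes of 0.74, 0.20 and 0.18, each past the adjusted p-value threshold. Irf2 rose by 0.96, while Irf3, the factor downstream of nucleic acid sensors, fell by 0.39 on the log2 scale (adjusted p = 1.2e-05, edgeR). Among phosphatases that restrain the pathway, Ptpn6 rose by 1.32 and Ptpn2 had a log2 fold change of -0.58. The feedback inhibitors Socs1 and Socs3 had -0.30 and 0.03 and did not pass (adjusted p = 0.062 and 0.61, edgeR).

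Among 55 other interferon-stimulated genes, 35 were tested, of which 21 rose and 4 fell. Of these, 3 (Zbp1, Oas1c and Gbp9) were below the count of the filter in an untreated library and had to be higher. Among the 32 genes at that count in both untreated libraries, 18 rose and 4 fell, with a median log2 fold change of 0.40. Of all genes at that count, 31.9% rose and 40.8% fell, with a median of -0.07. The fitted changes were largest for genes with few reads. Zbp1, a sensor of Z-form nucleic acids, had 0 and 1 raw counts without genistein and 11 and 16 with it (adjusted p = 0.00018, edgeR). Oas1c, Gbp9 and Trim34a had log2 fold changes of 2.71, 2.25 and 1.66, and Oas1c and Gbp9 rested on at most 4 raw counts in an untreated library. Parp10, Tor3a and Pml, the scaffold of nuclear bodies, rose past all thresholds (log2 fold changes 1.55, 1.13 and 1.08), and Ifi204, a DNA sensor of the nucleus, had -1.24 (adjusted p = 1.1e-11, edgeR) and fell past them.

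Among 26 other genes of the class I pathway, 17 were tested, of which 4 rose (23.5%) and 6 fell (35.3%). Among all tested genes, these shares were 33.5% and 38.2%. Over the 16 that reached the count of the filter in both untreated libraries, the median log2 fold change was -0.03. For all genes that did, it was -0.07. The non-classical heavy chain H2-T22 rose by 0.63 (adjusted p = 2.5e-09, edgeR), while the non-classical H2-T24 and H2-T23 had log2 fold changes of -0.90 and -0.72 (adjusted p = 0.0034 and 0.0073, edgeR). Rfxap, a subunit of the RFX complex that binds class I and class II promoters, had -0.57 and its partner Rfx5 had 0.54. The peptide-loading chaperone Calr fell by 0.48 on the log2 scale (adjusted p = 1.5e-07, edgeR). The immunoproteasome subunits Psmb8 and Psmb9 and the class I transactivator Nlrc5 were too low to test, and Nlrc5 had 2 and 3 raw counts without genistein and 4 and 7 with it. Of 7 class II genes, H2-Aa, H2-Ab1 and the class II transactivator Ciita had no count, and Cd74 was called higher at low counts (log2 fold change 0.81). H2-DMb1, with 5 and 3 raw counts without genistein and 14 and 16 with it, was tested through its genistein libraries alone and had to be higher. DESeq2 made neither call.

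**Figure D4:**
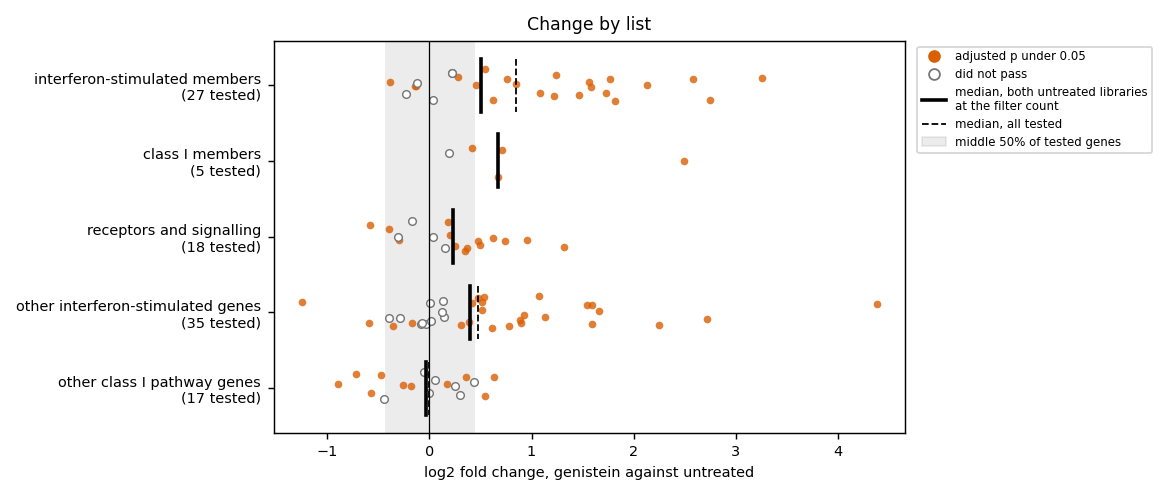
Log2 fold change (horizontal axis) of the tested genes of 5 lists, 1 point per gene; filled points passed the test, the grey band holds the middle 50% of tested genes, dashed bars are medians of all tested genes of a list, and solid bars are medians of those at the count of the filter in both untreated libraries. The solid bars lie at 0.50 for interferon-stimulated members, 0.67 for class I members, 0.23 for receptors and signalling, 0.40 for other interferon-stimulated genes and -0.03 for other class I pathway genes, and the dashed bar of the interferon-stimulated members, 7 of which had to be higher, lies at 0.85, on the other side of the class I median.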

How the data were processed

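Total RNA libraries (TruSeq Stranded, per the labels) were trimmed by the authors with Trim Galore, aligned with STAR to mm10, and counted with TEtranscripts on GENCODE M9 genes and repeats. The deposited values are raw counts, neither normalised nor pooled, and the strand option was not stated. The 1 row that named no gene (0.00208% to 0.00314% of a library) was left out. Symbols, coordinates and exon lengths came from GENCODE M21 (GRCm38, the same assembly as mm10), and 47224 of 47937 gene identifiers matched.

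Genes and repeats were analysed in 1 table with edgeR 4.0.16 in R 4.3.3, after filterByExpr by group (16240 genes and 1118 repeats kept) and TMM scaling over the kept rows, with Benjamini-Hochberg adjustment over them. The standard error is the size of the log2 fold change divided by the square root of F. RPKM used union exon length and effective library size. Full values are given for members past all thresholds, class I members, transcription factors, and the most abundant and most changed member of each role. Members and lists were chosen with earlier results of these data known. The signalling list was counted without 1 gene, which is not reported here. The test was checked on simulated counts with the same spread for every entry and with large changes only. Small changes and spreads that differ between genes were not checked. Nothing in the labels says that replicates came from separate cultures, so p-values measure the spread between these libraries. An exact permutation test (two-sided) of 2 libraries per group has a smallest p of 0.333. Intervals and floors cover counting error only, since reads carried no molecular identifiers.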

Additional observations from a re-analysis of the deposited data

How the results depend on the processing

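Alternatives were the scaling, the filter, DESeq2 1.42.0, the mean count and fold thresholds, leaving out single libraries and a replicate block; the restriction to genes at the filter count in both untreated libraries was chosen after seeing the data. With a mean normalised count over 10, 14 members rose past all thresholds, against 5, and 4 did when tested against the fold threshold itself. The 14 include the 7 that had to be higher to be tested, and the share of all genes at that count was not computed. The number of members that fell was 1 with library totals alone and 1 with scaling from genes alone, against 3. The median of the interferon-stimulated members was 0.92 with library totals, 0.50 over members that reached the filter count in both untreated libraries, and 0.24 as a ratio of summed counts; the sum weights abundant members by construction. The median of the class I members was 0.74 with library totals. Library totals raised the median of all genes by 0.07 on the log2 scale.

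Leaving out 1 library gave 22 to 24 members that rose, 2 to 3 that fell, 4 to 5 past all thresholds higher and 0 lower, medians from 0.82 to 0.88 for interferon-stimulated members and from 0.62 to 0.72 for class I members. Irgm1 lay from -0.013 (without genistein 1, a reversal within its standard error) to 0.085. With the replicate block, 23 members rose and 3 fell, 5 of them past all thresholds. The correlation between deviations of libraries with the same number was -0.03 (2 pairs), which does not show them as paired. With DESeq2, 20 members rose and 2 fell; Ifit3, Oasl2, Dtx3l and Trim25 lost their calls, and 3 of the other class I pathway genes fell, against 6. Depth limits the 10 untested members and the sizes of Irf7, Ifit1 and Gbp3. The cause of the other shifts was not tested.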
